A study of Homo sapiens with 4 samples.

Results

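The 7SL and 7SK RNAs, with the genomic copies named after them, were read from the beta-catenin RNA immunoprecipitation (RIP) tables of 2 human colon cancer cell lines. A transcript was taken where its name starts with RN7S or is 7SK or Metazoa_SRP, the name that the annotation gives to some unnumbered 7SL-like sequences. This gave 101 of the 9880 transcripts listed for HT-29 and 101 of the 11943 listed for CaCo-2. Over both lines there were 180 distinct transcripts of 19895. In HT-29 they were the genes RN7SL1 and RN7SL2, 81 copies of 7SL and 18 copies of 7SK. In CaCo-2 they were 84 copies of 7SL, Metazoa_SRP among them, and 17 copies of 7SK, among them the transcript named 7SK. A P in the name's suffix, which marks a copy, stood in 99 names of each line. The gene RN7SK was listed in 0 rows in both lines, RN7SL3 in 0, and RN7SL1 and RN7SL2 in 0 in CaCo-2. A transcript that is not listed was not analysed here, so its level is unknown.

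The study asked which long non-coding RNAs come down with beta-catenin, the transcriptional partner of the Wnt pathway, from nuclei of HT-29 and CaCo-2. Both are established human colon adenocarcinoma lines, and neither was treated. Each line had 1 library of RNA precipitated with a beta-catenin antibody from lysed nuclei and 1 input library of the same line without antibody, 4 libraries in all. Each list holds only transcripts at least 1.5-fold higher in the RIP library than in the input, so the direction of every ratio below was set by the listing. Because every group is 1 library, the spread between replicates is unknown and no difference was tested here. An unrelated antibody as a control was not analysed here. In RNA pooled from many cells, more cells carrying an RNA and more of it per cell cannot be told apart.

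7SL is the RNA scaffold of the signal recognition particle, which binds ribosomes making secreted or membrane proteins and brings them to the endoplasmic reticulum. 7SK is a nuclear RNA that holds the elongation kinase P-TEFb inactive together with the proteins HEXIM1, LARP7 and MEPCE. RNA polymerase III makes both from a few genes, and the genome carries many further copies of each, most of them regarded as pseudogenes. RN7SL1 and RN7SL2 are nearly identical in sequence and many copies resemble them. How reads matching several of them were shared is not given in the sources used here, and single members are uncertain to that extent.

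The listed 7SL genes, RN7SL2 and RN7SL1, were the most abundant members in HT-29, and they differed in level and in ratio. RN7SL2, on the minus strand of chr14:50329271-50329567 (hg19), had 32943 FPKM in the HT-29 input and 50539 FPKM in the RIP. FPKM, computed by the authors, divide a transcript's fragments by its length and by the size of the library. RN7SL2 ranked number 5 of 9880 transcripts by RIP level and number 4 by input level. Its RIP level was 1.53-fold its input level, a log2 ratio of 0.62. Before each log2 ratio, 1 FPKM was added to the level in both libraries, which understates the ratio of low transcripts. RN7SL1, on the plus strand of chr14:50053297-50053596, had 344 FPKM in input and 1906 FPKM in RIP. Its RIP level was 5.53-fold its input level, a log2 ratio of 2.46. The 2 genes thus stood far apart in level in both libraries, and RN7SL1 had the higher ratio. In the authors' deposited table the q-value of RN7SL2 was 0.989 and that of RN7SL1 0.9998. The table classes RN7SL1 as antisense and all other members as misc_RNA, and the locus it gives for RN7SL1 is wider than the transcript itself. Without a stated strand setting, reads of RN7SL1 and of a transcript on the other strand cannot be told apart.

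RN7SL4P was the most abundant copy. It lies on the plus strand of chr3:15780022-15780315, inside the listed gene ANKRD28, which runs on the minus strand. Its levels in HT-29 were 143 FPKM in input and 227 FPKM in RIP, a 1.59-fold difference. The ANKRD28 transcript over it had 0.960 FPKM in input and 3.07 FPKM in RIP. The copy's level per length was therefore far above that of the transcript around it. Every other copy stayed at or under 48.9 FPKM in RIP, the level of RN7SL674P in HT-29. In CaCo-2 the highest was RN7SL648P with 11.4 FPKM.

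**Figure D1:**
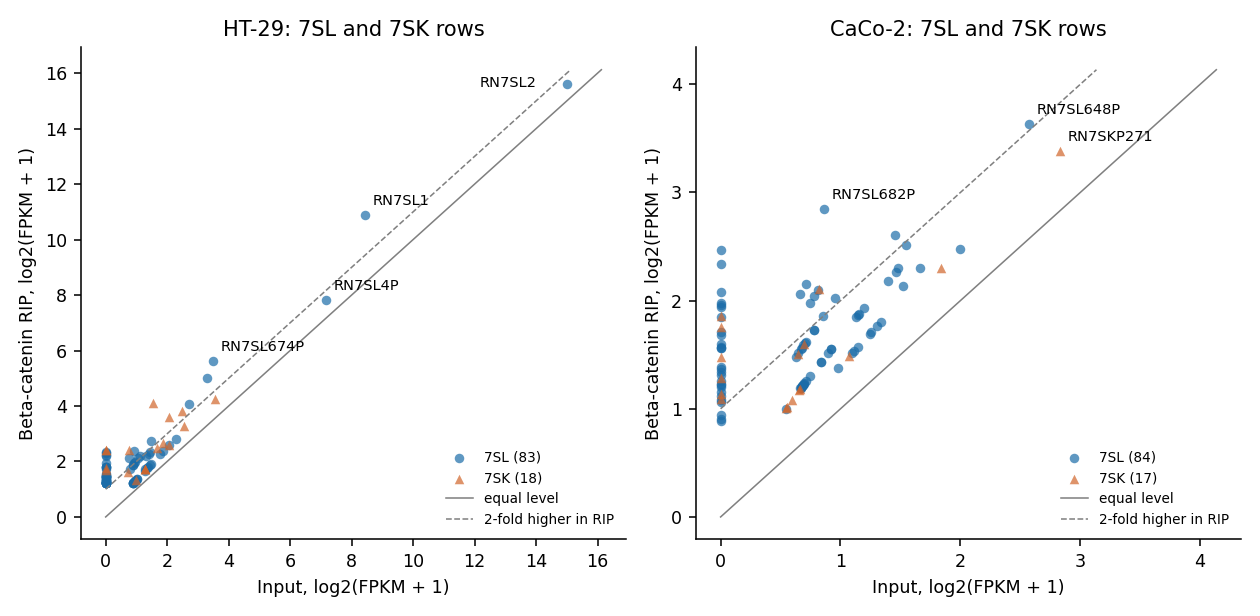
Level in RIP (vertical axis) against level in input (horizontal axis), both as log2 of FPKM plus 1, for the members of HT-29 (left) and CaCo-2 (right); circles are 7SL and triangles 7SK, the solid line marks equal levels and the dashed line 2-fold. RN7SL2 at 50539 FPKM and RN7SL1 at 1906 FPKM in RIP stand apart in HT-29, and the highest copy in CaCo-2 reaches 11.4 FPKM.

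Among the members of HT-29, 59 of 101 (58.4%) were at least 2-fold higher in RIP, where 56.0% of all listed transcripts were. Their median log2 ratio was 1.23, and that of all listed transcripts was 1.14. In CaCo-2, 97 members had at least 1 FPKM in a library, and 42 of them (43.3%) were at least 2-fold higher, beside 40.8% of all listed transcripts that passed the same filter. The median log2 ratio there was 0.90 for the members and 0.82 for all. The members' shares were near those of the whole list in both lines. Input was listed at 0 for 44 members of HT-29 (43.6%, beside 31.8% of the list) and for 34 of CaCo-2 (33.7%, beside 29.0%). A transcript with 0 in input and at least 1 FPKM in RIP reaches 2-fold by construction. Where input was above 0, 15 of 57 members in HT-29 (26.3%) reached 2-fold, beside 35.5% of all such transcripts, and 11 of 66 in CaCo-2 (16.7%), beside 19.5%. A q-value at or below 0.05 in the authors' deposited table was held by 1 member in HT-29, RN7SL674P, where 3.08% of the list had one, and by 0 in CaCo-2, beside 2.24%.

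The levels of the copies fell on discrete steps. Among RNAs of 200 to 400 nucleotides whose deposited locus holds nothing else, the FPKM values of a library were whole multiples of a smallest value that depended only on the RNA's span. Each step was taken as 1 fragment. At a span of 300 nucleotides, 1 fragment was worth 0.771 FPKM in the HT-29 input and 1.22 FPKM in the HT-29 RIP. In CaCo-2 it was worth 0.582 FPKM in input and 0.635 FPKM in RIP. The members in wider loci followed the same steps. All 96 RIP values and all 54 input values of copies under 20 fragments in HT-29 lay within 0.05 of a whole number, as did all 101 and all 67 in CaCo-2. These counts include the copies alone at their locus, 31 in HT-29 and 23 in CaCo-2. The steps were fitted to such transcripts, so for them the closeness is partly built in. The largest distances were 0.0063 of a fragment in HT-29 and 0.0073 in CaCo-2.

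**Figure D2:**
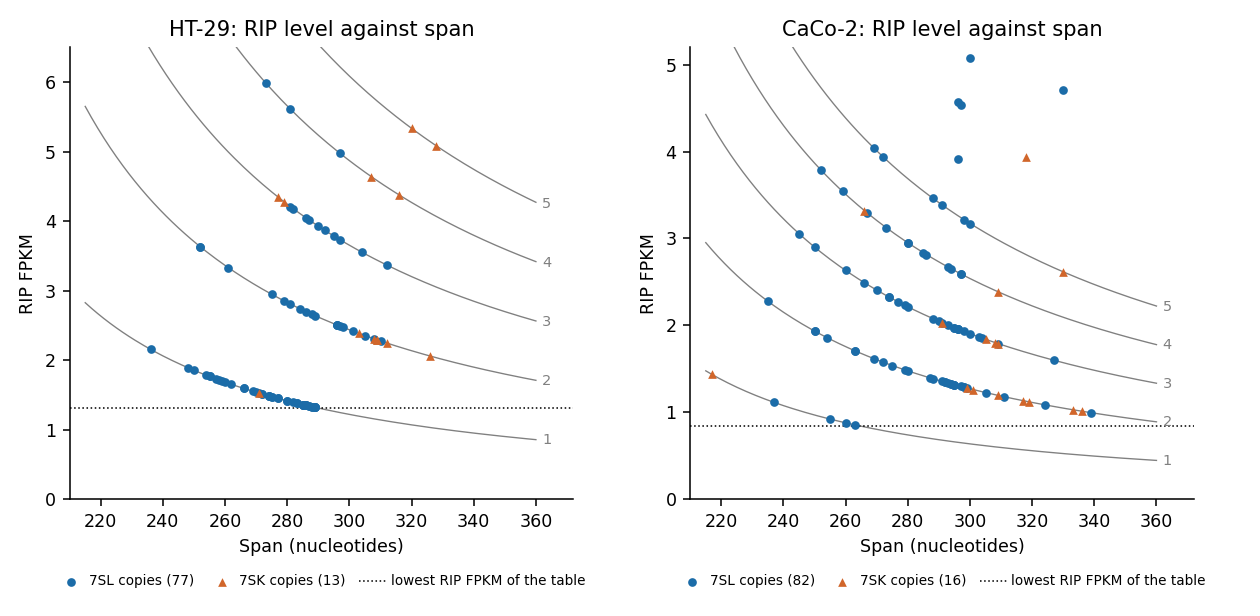
RIP FPKM (vertical axis) against span in nucleotides (horizontal axis) for the copies of HT-29 (left, 90 of 99 within the drawn range) and CaCo-2 (right, 98 of 101), with grey curves for 1 to 5 fragments and a dotted line at the lowest RIP FPKM of each table. The copies on the lowest steps lie on the curves, and the lowest step leaves the list where it meets the dotted line.

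Most copies rested on very few fragments. In the HT-29 RIP, 46 of the 99 copies had 1 fragment, 25 had 2 and 12 had 3, so that 83 had 1 to 3, and the median was 2. In the CaCo-2 RIP, 5 of the 101 copies had 1 fragment, 37 had 2 and 29 had 3, which makes 71, and the median was 3. In the inputs, 44 copies of HT-29 had 0 fragments, 27 had 1, 12 had 2 and 16 had 3 or more. In CaCo-2, 34 had 0, 43 had 1, 15 had 2 and 9 had 3 or more. Numbers of 10 or more in RIP were reached by 9 copies of HT-29 and by 2 of CaCo-2. The lowest RIP level listed was 1.31 FPKM in HT-29 and 0.842 FPKM in CaCo-2. A single fragment stays above that level only up to a span of 289 nucleotides in HT-29 and 263 in CaCo-2 among the members, and 33 and 84 copies were longer.

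Equal fragment numbers gave a listed fold above 1.5 in HT-29. The value of 1 fragment was 1.5 to 1.61 times higher in the RIP than in the input over the members' spans in that line, and 1.06 to 1.09 times in CaCo-2. In HT-29, 29 copies had the same number of fragments in both libraries, with folds of 1.51 to 1.60. Among them, 16 had 1 fragment in each and 8 had 2 in each. RN7SL4P came close to this, with 177 fragments in input and 179 in RIP. For RN7SL2 the levels correspond to about 41794 fragments in input and 40642 in RIP, so its 1.53-fold listing came with slightly fewer fragments in the RIP library. For RN7SL1 they correspond to 447 and 1566 fragments. The difference between the ratios of the 2 genes was not tested. In CaCo-2, equal numbers give a fold of only 1.06 to 1.09, under the 1.5-fold that the listing required. A copy with equal numbers could therefore not be listed there, and 0 copies had them. All 101 had more fragments in RIP, as the listing required. In HT-29, more fragments in RIP were held by 70 of 99 copies, and fewer by 0. For copies with few fragments this too was set by the listing, because fewer in RIP than in input fall under 1.5-fold. Because equal numbers could be listed only in HT-29, the 2 lines cannot be compared by these counts.

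**Figure D3:**
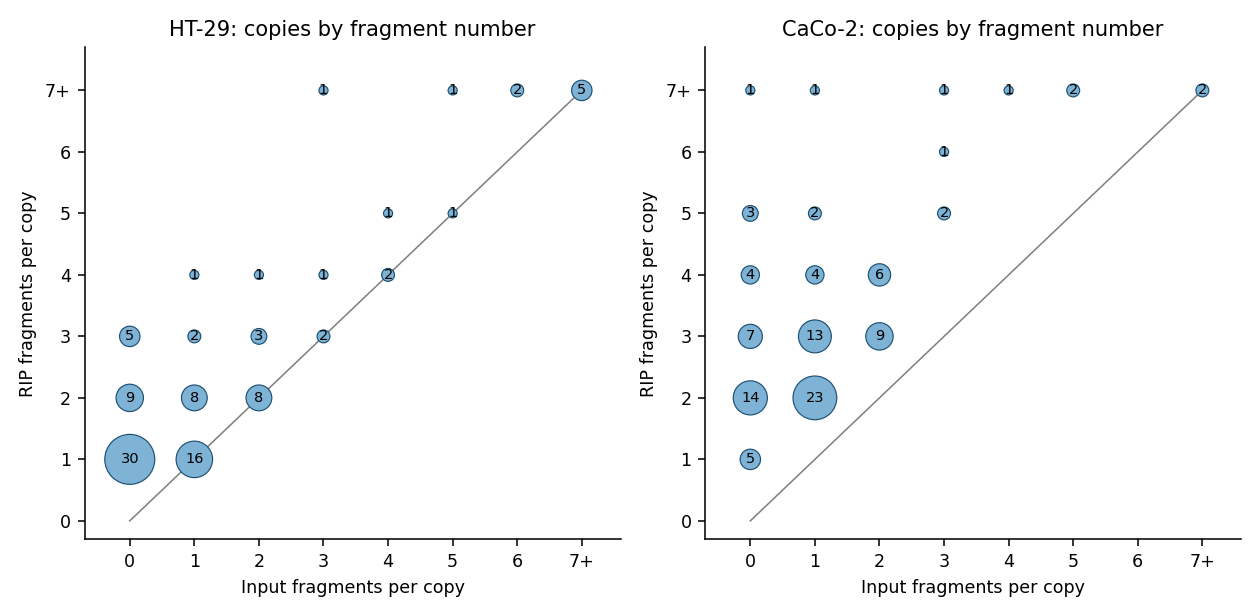
RIP fragments per copy (vertical axis) against input fragments per copy (horizontal axis) for HT-29 (left) and CaCo-2 (right), with 7 or more in the last class; the area of a circle and the number in it give the copies with that pair, and the line marks equal numbers. In HT-29 the line holds 16 copies at 1 and 1 and 8 at 2 and 2. All copies of CaCo-2 have more fragments in RIP, those in the last class included, as the listing required in that line.

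The listed fold of a copy was thus nearly fixed by its pair of fragment numbers. The most frequent pair in HT-29 was 0 in input and 1 in RIP, held by 30 copies. Next came 1 and 1, held by 16. The 8 copies with 1 and 2 had folds of 3.06 to 3.19. In CaCo-2 the most frequent pair was 1 in input and 2 in RIP, held by 23 copies with folds of 2.17 to 2.18. The next was 0 and 2, held by 14. The 13 copies with 1 and 3 had folds of 3.25 to 3.27. For transcripts alone at their locus, the authors' p-values followed the same numbers. For transcripts alone at their locus with 0 in HT-29 input, the authors' deposited table gives 1 single p-value for each RIP number, 0.14 for 1 fragment, 0.0744 for 2 and 0.0431 for 3. In CaCo-2 it gives 0.161, 0.0844 and 0.0478. Copies in wider loci had other p-values at the same numbers. With 0 and 1 fragments in HT-29, the authors' deposited table gives 0.180 for RN7SL202P and 0.377 for RN7SL622P.

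Summed over the copies, HT-29 had 323 fragments in input and 479 in RIP, or 146 and 300 without RN7SL4P. CaCo-2 had 119 and 342. The direction of these sums was in large part set by the listing. Each fold was given an exact 95% Clopper-Pearson interval from its 2 fragment numbers, which covers counting error only, because fragments copied by PCR without molecular identifiers are not independent molecules. In HT-29 the interval lay above a fold of 1 for 5 copies, RN7SL4P (1.29 to 1.97), RN7SL674P, RN7SL128P, RN7SKP185 and RN7SKP180. CaCo-2 had 1 such copy, RN7SL481P. The interval lay above the fold that equal fragment numbers give for 3 of the 5, RN7SL674P, RN7SL128P and RN7SKP185, and for RN7SL481P. Every copy was listed for a RIP level at least 1.5-fold its input, so an interval above 1 is in part set by the listing and is given as a description. These counts stand among 99 and 101 copies and carry no correction for that number.

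RN7SL674P, on chr2:11724899-11725176, had 10.1 FPKM in the HT-29 input and 48.9 FPKM in the RIP, from 11 and 34 fragments. Its RIP level was 4.82-fold its input level (95% interval 2.39 to 10.6), and its q-value in the authors' deposited table was 0.0493. RN7SL128P, on chr6:20421812-20422118, had 8.78 FPKM in input and 31.3 FPKM in RIP, from 12 and 27 fragments. The fold was 3.57 (1.75 to 7.73) and the authors' deposited table gives a q-value of 0.398. Both are 7SL copies, and both had at least 10 fragments in each library. Both lie in a deposited locus wider than the copy, and whether reads of other transcripts there count among theirs is unknown.

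RN7SKP185, a 7SK copy alone at its locus on chr20:36603558-36603883, had the highest log2 ratio of any copy in HT-29, 2.57. It had 1.93 FPKM in input and 16.5 FPKM in RIP, from 3 and 16 fragments, a fold of 8.52 (2.44 to 45.6). Its q-value in the authors' deposited table was 0.162. RN7SKP189, another 7SK copy alone at its locus, had almost the same RIP level, 18.1 FPKM. Its input was higher, 10.7 FPKM, and its 17 and 18 fragments gave a fold of 1.69 (0.823 to 3.50). The difference between the folds of these 7SK copies was not tested.

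Of the remaining abundant copies in HT-29, RN7SKP180 had an interval above 1, while those of RN7SL767P and RN7SKP237 reached below 1. RN7SKP180, on chr17:70659962-70660291, had 3.14 FPKM in input and 11.1 FPKM in RIP, from 5 and 11 fragments, a fold of 3.52 (1.13 to 12.9). The deposited locus of RN7SKP180 is wider than the copy, so reads of other transcripts there may be among its own. RN7SL767P had 5.57 FPKM in input and 15.9 FPKM in RIP from 6 and 11 fragments, with an interval from 0.970 to 9.42. RN7SKP237 had 4.59 and 13.3 FPKM, also from 6 and 11, with an interval from 0.982 to 9.54. The 4 next highest log2 ratios of the line belonged to copies with 0 fragments in input and 3 in RIP. They were RN7SKP231 with 4.35 FPKM, RN7SKP144 with 4.28 FPKM, RN7SL87P with 4.05 FPKM and RN7SL735P with 3.93 FPKM in RIP. The 3 lowest log2 ratios, 0.33 in each case, belonged to RN7SL210P, RN7SL811P and RN7SL749P, which had 1 fragment in each library.

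In CaCo-2, RN7SL648P, on chrX:73462445-73462736, and RN7SKP271, on chr20:34231065-34231384, had the highest RIP levels. RN7SL648P had 4.94 FPKM in input and 11.4 FPKM in RIP, from 8 and 17 fragments, a fold of 2.31 (0.947 to 6.20). It lies in a listed transcript of FTX, a long non-coding RNA, on the same strand. That transcript had 0.462 FPKM in input and 0.979 FPKM in RIP. RN7SKP271 had 6.11 FPKM in input and 9.45 FPKM in RIP, from 12 and 17 fragments, a fold of 1.55 (0.696 to 3.55). Both intervals reached below 1.

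The highest log2 ratios in CaCo-2 came from copies with 0 or 1 fragment in input. RN7SL481P, on chr7:142995609-142995905, had 0 FPKM in input and 4.54 FPKM in RIP, from 7 fragments. The deposited locus is wider than this copy and also holds RN7SL535P and the listed gene CASP2. Whether reads of other transcripts there count among the 7 fragments is unknown. The RIP level of RN7SL481P was 2.54 times that of 3 input fragments, the floor set for an input of 0. The lower end of its 95% interval, taken with an input of 0 fragments, was 1.57. RN7SL362P had 0 FPKM in input and 4.04 FPKM in RIP from 5 fragments, 1.81 times the same floor. The lower end of its interval was 0.996, below 1. RN7SL682P, alone at its locus on chr5:137614783-137615041, had 0.816 FPKM in input and 6.20 FPKM in RIP, from 1 and 7 fragments, a fold of 7.60 (0.976 to 342). RN7SL851P had 0 and 3.22 FPKM, and RN7SL279P had 0 and 2.95 FPKM, from 5 and 4 fragments in RIP. Of the copies with input at 0, 14 of 44 in HT-29 and 15 of 34 in the other line had a RIP level above that of 3 input fragments. Of the 14 in HT-29, 9 had only 2 RIP fragments, at 1.02 to 1.06 times that level. In CaCo-2, 2 RIP fragments stayed below that level, so the counts of the 2 lines rest on unlike fragment numbers.

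RIP levels of 4.57 to 5.07 FPKM were held by RN7SL412P, RN7SL243P and RN7SL246P of CaCo-2. RN7SL246P had 1.75 FPKM in input and 5.07 FPKM in RIP, from 3 and 8 fragments. RN7SL243P, inside ZMYND8, had 1.92 and 4.71 FPKM from 4 and 9. RN7SL412P had 2.99 and 4.57 FPKM from 5 and 7. The lowest log2 ratios, 0.39 to 0.42, belonged to RN7SL765P, RN7SKP25 and RN7SL517P, each with 2 fragments in input and 3 in RIP. The transcript named 7SK, on chr6:136866330-136866630, had 0.578 FPKM in input and 1.26 FPKM in RIP, from 1 and 2 fragments. Metazoa_SRP, on chr11:130180075-130180369, had 1.21 and 1.97 FPKM from 2 and 3 fragments. Neither unnumbered entry stood out from the numbered copies.

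The 7SK copies were longer than the 7SL copies and fewer of them had input at 0 in HT-29, differences that were not tested. In that line the 7SL copies spanned 236 to 312 nucleotides with a median of 283, and the 7SK copies 271 to 358 with a median of 310.5. Input was listed at 0 for 40 of 81 7SL copies (49.4%) and for 4 of 18 7SK copies (22.2%), beside 31.8% of the list. At least 2-fold higher in RIP were 50 of 81 (61.7%) and 8 of 18 (44.4%), beside 56.0% of the list. Their median log2 ratios were 1.23 and 0.86. The median fragment number in RIP was 1 for 7SL copies and 3.5 for 7SK copies. In HT-29 a single RIP fragment was listed only up to a span of 289 nucleotides, below the median span of the 7SK copies. All 30 copies with 0 fragments in input and 1 in RIP were 7SL copies. How far the listing sets these differences between the families was not tested. Where input was above 0, 10 of 41 7SL copies (24.4%) and 4 of 14 7SK copies (28.6%) reached 2-fold, beside 35.5% of such transcripts in the list. In CaCo-2 the families were closer. There, 35 of 80 7SL copies (43.8%) and 7 of 17 7SK copies (41.2%) were at least 2-fold higher, beside 40.8% of the list. Their median log2 ratios were 0.90 and 0.86, with a median of 3 fragments in RIP in both.

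The copies lay scattered over the genome, on 21 chromosomes in HT-29 and on 23 in the other line. Both strands carried them, with 48 plus and 51 minus in HT-29, and 48 plus and 53 minus in CaCo-2. Another listed transcript overlapped 21 copies in HT-29, on the same strand for 10 and on the opposite strand for 11. In CaCo-2 it was 32 copies, 22 on the same strand and 10 on the opposite one. For these, reads of the copy and of the transcript it lies in cannot be told apart. The limit may reach further, because 68 copies of HT-29 and 78 of CaCo-2 lie in a deposited locus wider than the copy. Transcripts there that are not listed were not analysed, so whether their reads count among those of the copies is unknown. RN7SL171P lies in MINK1, RN7SL57P and RN7SL430P lie in PTBP3, and RN7SL851P lies in EIF2AK1. Copies alone at their locus were 31 in HT-29, of which 22 (71.0%) were at least 2-fold higher, and 23 in CaCo-2, where 8 of the 21 that passed the filter (38.1%) were. For copies in wider loci the counts were 36 of 68 (52.9%) and 34 of 76 (44.7%). The share was thus higher for lone copies in HT-29 and lower in CaCo-2, beside 56.0% and 40.8% of all listed transcripts. Input was listed at 0 for 17 of 31 lone copies and 27 of 68 others in HT-29. In CaCo-2 it was at 0 for 7 of 23 and 27 of 78. Where input was above 0, 5 of 14 lone copies and 9 of 41 others reached 2-fold in HT-29, beside 35.5% of the list. In CaCo-2, 3 of 16 and 8 of 50 that passed the filter did, beside 19.5%. These differences were not tested.

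The lists of the 2 lines shared 22 members, 17 copies of 7SL and 5 of 7SK, which is 21.8% of the members of each line. Of all listed transcripts, 1928 were shared, 19.5% of the HT-29 list and 16.1% of the CaCo-2 list. At least 2-fold higher in both lines were 6 of the 22, RN7SL45P, RN7SKP180, RN7SL9P, RN7SL279P, RN7SL171P and RN7SL57P. Input was at 0 in both lines for 4 of them, RN7SL45P, RN7SL9P, RN7SL279P and RN7SL171P. A further 4 reached 2-fold in HT-29 alone (RN7SL540P, RN7SL613P, RN7SL281P and RN7SL59P), 4 in CaCo-2 alone (RN7SL330P, RN7SKP243, RN7SKP74 and RN7SL99P) and 8 in neither. The same counts were not made for the 1928 shared transcripts, so these have no background beside them. Whether the lines differ was not tested. In 14 of the 22, RIP held 3 fragments or fewer in both lines.

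RN7SKP180 was the most abundant of the 6, with 5 and 11 fragments in HT-29. It had 0 and 5 in CaCo-2, where its RIP level was 2.62 FPKM. In CaCo-2 it lies within a listed transcript of SLC39A11, a zinc transporter, on the same strand. RN7SL45P had 0 FPKM in both inputs and 2.50 FPKM in the HT-29 RIP and 1.96 FPKM in the CaCo-2 RIP, from 2 and 3 fragments. RN7SL9P had RIP levels of 1.51 and 1.58 FPKM from 1 and 2 fragments. RN7SL279P had 1.41 and 2.95 FPKM and RN7SL171P 1.36 and 2.84 FPKM, each from 1 fragment in HT-29 and 4 in CaCo-2. RN7SL57P had 1.33 FPKM in the HT-29 RIP from 1 fragment, and 0.636 FPKM in input and 3.46 FPKM in RIP in CaCo-2, from 1 and 5. None of these 5 had more than 5 fragments in a library.

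Of the shared copies under 2-fold in both lines, RN7SKP271 had the highest levels. It had 2.68 FPKM in input and 5.34 FPKM in RIP in HT-29, from 4 and 5 fragments, beside its 6.11 and 9.45 FPKM in CaCo-2. It lies in CPNE1, a calcium-dependent membrane-binding protein gene, on the opposite strand in both lists. RN7SL412P had 2 fragments in each library of HT-29 and 5 and 7 in CaCo-2. RN7SL137P, RN7SL850P, RN7SL15P, RN7SKP25, RN7SL389P and RN7SL550P had at most 3 fragments in any library. RN7SL613P, inside VPS13C and past 2-fold in HT-29 alone, had 0 and 2 fragments there and 2 and 4 in the CaCo-2 libraries.

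**Figure D4:**
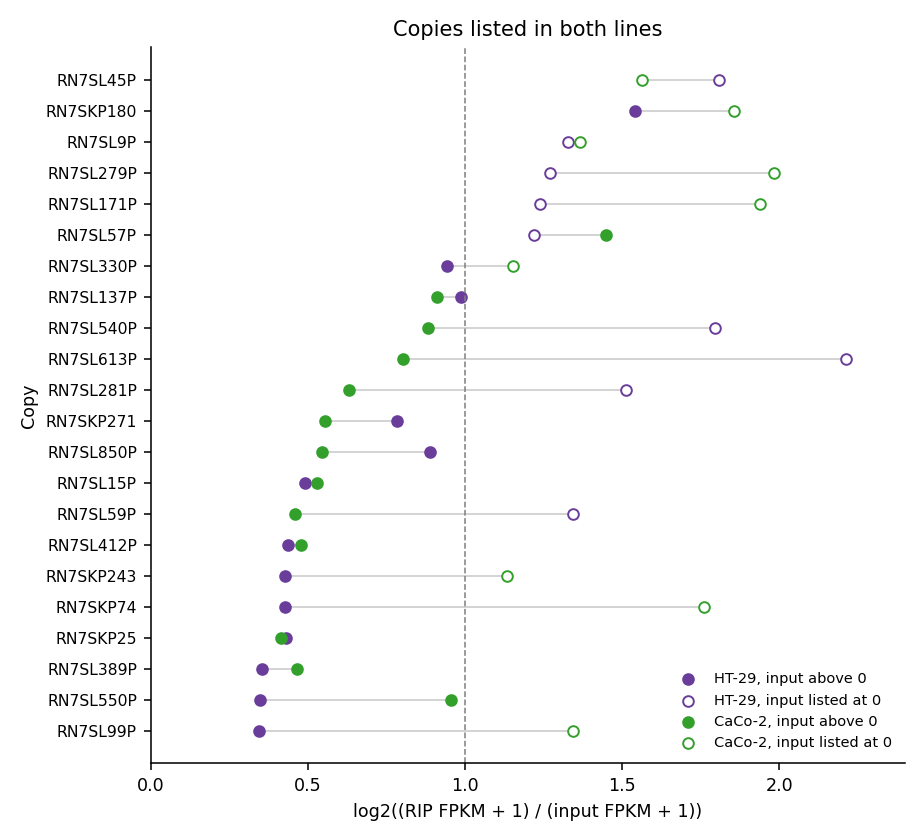
Log2 ratio of RIP to input (horizontal axis, pseudocount of 1 FPKM) in HT-29 and CaCo-2 for each of the 22 copies listed in both lines, with a line at a log2 ratio of 1, which is 2-fold. In 6 copies both points lie past that line, and in 8 neither does.

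Among the proteins that work with 7SL, the HT-29 table held 11 of 18 genes of a list for the signal recognition particle, its receptor, the translocon and the La protein SSB, and the CaCo-2 table held 10, each read from its transcript with the highest RIP level. At least 2-fold higher were 9 of 11 and 6 of 10, where 55.6% and 41.0% of all listed genes were. Their median log2 ratios were 1.71 and 1.10, beside 1.12 and 0.83 for all listed genes. Input was at 0 for 5 of the 11 genes in HT-29, which puts them past 2-fold by construction, and for 0 of the 10 in CaCo-2. Colon epithelium markers, read the same way, had 6 of 8 genes past 2-fold in HT-29 with a median of 1.57. In CaCo-2, 1 of the 5 markers that passed the filter was past 2-fold, with a median of 0.77. The particle protein SRP14, which binds the Alu domain of 7SL, was the only gene of the list with a q-value at or below 0.05 in the authors' deposited table, in CaCo-2. Its protein-coding transcript had 7.96 FPKM in the CaCo-2 input and 21.7 FPKM in the RIP, with a q-value of 0.00595 in the authors' deposited table. In HT-29 a processed transcript of SRP14 had 0 and 8.88 FPKM. SSR1, a subunit of the translocon-associated complex, had 8.26 and 18.8 FPKM in HT-29, and 1.72 and 5.13 FPKM in CaCo-2. SEC61G, a subunit of the protein-conducting channel, had 0 and 5.85 FPKM in HT-29 and 1.34 and 4.78 FPKM in CaCo-2. SSR3, of the same complex as SSR1, had 0.316 and 3.68 FPKM in HT-29. SSB, which binds the ends of new polymerase III transcripts and is also on the polymerase III list, had 0.631 and 5.09 FPKM in CaCo-2. These are levels of the messenger RNAs, not of the proteins.

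For the 7SK particle and P-TEFb, the tables held 11 genes of a list of 20 symbols in HT-29 and 12 in CaCo-2. HNRNPQ and SYNCRIP on that list name the same gene. At least 2-fold higher were 6 of 11 and 3 of 12, again beside 55.6% and 41.0% of all listed genes. The median log2 ratios were 1.09 and 0.75, beside 1.12 and 0.83. HNRNPA1, which binds 7SK released from P-TEFb, had 6.71 FPKM in input and 27.6 FPKM in RIP in HT-29. SRSF2, a splicing factor found with 7SK at promoters, had 8.70 and 13.7 FPKM. MEPCE, which caps 7SK, had 5.82 and 9.31 FPKM. LARP7, which protects its end, had 0.754 and 2.73 FPKM. LARP7 and HNRNPA1 were at least 2-fold higher, and SRSF2 and MEPCE were not. In CaCo-2, HNRNPA2B1 had 4.57 and 8.58 FPKM, CCNK had 2.25 and 4.86 FPKM, and the kinase CDK9 had 1.30 and 2.47 FPKM. A q-value at or below 0.05 was held by 0 of these genes in the authors' deposited table in either line.

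Of 23 genes for transcription by RNA polymerase III, 8 were listed in HT-29, 3 of them at least 2-fold higher, with a median log2 ratio of 0.89. In CaCo-2, 12 were listed, 11 passed the filter and 3 were at least 2-fold higher, with a median of 0.66. SSB is 1 of these 3 and is counted in both lists. Over all listed genes the shares were 55.6% and 41.0% and the medians 1.12 and 0.83, so both shares and both medians of this list lay below them. The polymerase subunit POLR3E had 2.25 and 5.91 FPKM in HT-29 and 0 and 1.65 FPKM in CaCo-2. POU2F1, the octamer-binding activator of 7SK-type promoters, had 0.904 and 2.34 FPKM in HT-29, with a q-value of 0.0150 in the authors' deposited table. The 7SL-related brain RNA BCYRN1 (BC200) was listed in 0 rows in both lines.

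Transcripts named after other RNAs that polymerase III makes were shorter and had higher median RIP FPKM than the copies. They were matched by the start of their names, so copies can be among them. Among the members a fragment was worth more FPKM at shorter spans, so these levels do not compare abundance. In HT-29 the medians were 305, 604 and 516 FPKM for U6, Y and 5S names and 2.29 FPKM for the copies, while RN7SL2 lay above all of them. In HT-29, all 6 U6 names, 8 of 9 Y names and 22 of 24 5S names were at least 2-fold higher in RIP. Input was at 0 for 5, 7 and 17 of them. Of all listed transcripts, 56.0% were at least 2-fold higher and 31.8% had input at 0. In CaCo-2 all 14 U6 transcripts and all 20 Y RNAs had input at 0 and were at least 2-fold higher, as were 9 of 11 5S RNAs, 9 of which had input at 0. Their spans were 61 to 147 nucleotides, outside the range in which fragment steps were read, so their fragment numbers were not compared with those of the copies.

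Against markers of the lines' tissue, colon epithelium genes were listed for 8 of 16 in HT-29 and for 6 of the 16 in CaCo-2. KRT18, an epithelial keratin, had 54.3 FPKM in the HT-29 RIP and 32.0 FPKM in the CaCo-2 RIP. Fibroblast markers were listed for 0 of 5 genes in both lines. Of 5 immune markers, HT-29 had 0 listed and CaCo-2 had 1, CD68 with 1.47 FPKM in RIP. Because the tables hold only transcripts higher in RIP, a marker that is missing from them does not show that the gene was silent.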

How the data were processed

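RNA was sequenced from nuclear input and from beta-catenin RIP of HT-29 and CaCo-2, 1 library each. Per the submitters' processing notes, CASAVA 1.4, Bowtie2, TopHat2 2.0.8, Cufflinks and Cuffdiff were used with hg19, and per the labels' protocols libraries came from a TruSeq RNA kit. The strand setting and other versions are not stated there. The deposited values are FPKM per Ensembl transcript, normalised by the authors. The fold of RIP over input and the q-values and p-values were deposited by the authors from Cuffdiff, with 1 library a side. Coordinates are hg19, counted from 1.

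Computed here were log2 ratios with a pseudocount of 1 FPKM, a filter of at least 1 FPKM in at least 1 library of the line, and counts past 2-fold. Fragment numbers were read from FPKM steps, with each library's step size fitted as a cubic curve in span to 25 and 57 transcripts alone at their locus (HT-29 input and RIP) and 30 and 51 (CaCo-2). The reading was checked on simulated data, with whole fragment numbers drawn at the spans of transcripts alone at their locus. Wider loci, shared reads and numbers as large as those of RN7SL1 and RN7SL2 were not simulated. Because whole steps were built into the simulation, it cannot show that a step is 1 fragment. That a step is 1 fragment is inferred from the values, and the libraries' total depth is unknown. Intervals are exact 95% Clopper-Pearson intervals of the fragment ratio, scaled by the step sizes, with an input of 0 taken as 0 fragments. Separately, the RIP level of copies with input at 0 was set against a floor of 3 input fragments.

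Copies were named by rule: per line the 8 highest in RIP, the 5 highest and 3 lowest log2 ratios, any with a q-value at or below 0.05, and all listed in both lines. Pathway lists give up to 4 genes by RIP level. RN7SL430P, the entries 7SK and Metazoa_SRP, LARP7 and CDK9 were named outside that rule after their values were seen. Members, lists and rules were chosen with earlier results of these data known. Python 3.11.15 with numpy 2.4.6, pandas 2.3.3 and scipy 1.17.1 was used. The number of unmapped value columns was 0.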

Additional observations from a re-analysis of the deposited data

How the results depend on the processing

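The 59 members of HT-29 at least 2-fold higher became 9 at a 4-fold threshold, 4 with a pseudocount of 10 FPKM, 10 (of 35) where both libraries had at least 1 FPKM, 15 (of 57) without members with input at 0, and 9 (of 18) with more than 3 RIP fragments, a setting added after the data were seen. The 42 of CaCo-2 became 3, 0, 2 (of 23), 11 (of 66) and 17 (of 30) under the same settings, and 80 with a pseudocount of 0.1 FPKM and 83 by the deposited fold. The median log2 ratio of 1.23 in HT-29 became 1.82 with a pseudocount of 0.1 FPKM, 0.21 with 10 FPKM, 0.67 where both libraries had at least 1 FPKM and 0.54 without members with input at 0. The median of 0.90 in CaCo-2 became 1.55, 0.18, 0.61 and 0.63. HT-29 had 67 members past 2-fold with a pseudocount of 0.1 FPKM and 67 by the deposited fold. Without the filter on low values, the counts and medians were the same in both lines. Merging members that overlap on the genome changed nothing, because none overlap another; copies that share a wider deposited locus were not merged. RN7SL1 kept a log2 ratio of 2.43 to 2.47 and RN7SL2 one of 0.62 under both pseudocounts. A ratio for RN7SK could not be given. No replicate could be left out, and no paired analysis was possible because each group has 1 library. With 1 to 3 RIP fragments behind 83 of 99 copies of HT-29 and behind 71 of 101 of CaCo-2, folds of single copies are limited by counting.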
